A study of Mus musculus with 6 samples.

Results

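The genes described here belong to the unfolded protein response and the integrated stress response. They were picked by name, as 36 listed gene symbols, and 35 of them had a row among the 30927 genes tested. The symbol Phgdh, an enzyme of serine synthesis, has no value here. Their signals come from Affymetrix arrays of BMEL cells, immortalized hepatoblasts obtained from livers of E12.5 embryos of wild-type CD1 mice. Hepatoblasts are the fetal progenitors of hepatocytes and bile duct cells. Cells seeded at 50000 per collagen-coated well were transfected by lipofection with 500 ng of either a mmu-miR-337-3p mimic (3 arrays) or a negative control mimic (3 arrays), and were collected at 48 h. All 6 arrays thus share the line, the genotype, the transfection reagent and a transfected duplex. Whether a replicate was a culture of its own is not in the labels, so every p-value rests on a spread between arrays that could be technical.

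The endoplasmic reticulum folds secreted and membrane proteins, and a hepatic cell secretes many of them. When unfolded proteins build up there, the sensors ATF6, IRE1 (gene Ern1) and PERK (gene Eif2ak3) are activated. ATF6 and spliced XBP1 raise chaperones and degradation factors. PERK and related kinases phosphorylate eIF2alpha, which slows translation but favours that of ATF4, a factor that raises genes of amino acid supply, the CHOP gene Ddit3 and the phosphatase subunit that ends the response. An array of gene signals reads neither the splicing of Xbp1 nor the phosphorylation of eIF2alpha.

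The sequence that separates the groups is the transfected microRNA. Its mature form, which RefSeq places at chr12:109585850-109585871 on the plus strand of GRCm38.p6, is 22 bases long and is given with the seed, bases 2 to 8, in capitals.
miR-337-3p: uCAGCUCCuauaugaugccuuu

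Members are also tied to the response by short promoter elements. Windows of 250 bases before the RefSeq gene start (GRCm38.p6) were found for 34 of the 36 symbols. They were searched on both strands for the ER stress response element (ERSE), which is CCAAT and CCACG with 9 bases of any kind between them, and for the C/EBP-ATF element read by ATF4 and its partners (CARE), TGATGNAA. The ERSE-II, which is ATTGG and CCACG with 1 base between them, and an XBP1 element, TGACGTGG, were searched as well. An ERSE occurred before 8 of 16 chaperone arm genes, against 0.113% of all 32851 promoter windows, and before none of 14 ATF4 arm genes or 4 sensor genes. Before 4 of 14 ATF4 arm genes (Asns, Atf3, Chac1 and Vldlr) there was a CARE, against 3.45% of all windows, and Herpud1 carried an ERSE-II (0.0304% of all windows) and a CARE that do not overlap. The XBP1 element, in 0.563% of all windows, was in no member's window. A match of letters is a description and not a bound site. All ERSE matches are printed so that genes with the same element can be set beside their responses. Each is in the orientation of the element, with the fixed letters in capitals and the spacer in lower case.
Hspa5 (chr2:34772025-34772043, plus strand): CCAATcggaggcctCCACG
Hsp90b1 (chr10:86705638-86705656, minus strand): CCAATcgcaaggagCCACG
Hsp90b1 (chr10:86705533-86705551, plus strand): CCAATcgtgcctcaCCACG
Calr (chr8:84847075-84847093, plus strand): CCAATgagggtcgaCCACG
Canx (chr11:50325800-50325818, minus strand): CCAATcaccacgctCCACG
Pdia6 (chr12:17266491-17266509, plus strand): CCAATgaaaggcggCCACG
Dnajc3 (chr14:118937827-118937845, plus strand): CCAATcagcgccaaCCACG
Creld2 (chr15:88819520-88819538, minus strand): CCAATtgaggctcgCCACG
Syvn1 (chr19:6046532-6046550, plus strand): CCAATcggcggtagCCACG

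The genes with an ERSE had values on both sides of 0. The log2 difference, miR-337-3p mimic minus control mimic, was 0.48 for Canx, 0.30 for Pdia6 and 0.06 for Creld2. It was -0.11 for Hsp90b1, -0.12 for Calr, -0.19 for Syvn1, -0.46 for Hspa5 and -0.63 for Dnajc3. The promoters of the 4 element-bearing genes with the smallest unadjusted p are printed whole, 5′ to 3′, with the matched element in capitals. Canx and Dnajc3 carry an ERSE 145 and 105 bases before the start and differed in opposite directions. Atf3 and Vldlr carry a CARE 110 and 200 bases before the start and both read lower.
Canx promoter (chr11:50325674-50325923, minus strand): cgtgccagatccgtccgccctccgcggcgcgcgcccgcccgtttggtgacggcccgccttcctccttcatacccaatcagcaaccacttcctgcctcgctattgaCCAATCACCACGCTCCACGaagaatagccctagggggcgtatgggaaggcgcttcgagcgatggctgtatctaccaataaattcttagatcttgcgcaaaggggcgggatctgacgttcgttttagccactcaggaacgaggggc
Dnajc3 promoter (chr14:118937682-118937931, plus strand): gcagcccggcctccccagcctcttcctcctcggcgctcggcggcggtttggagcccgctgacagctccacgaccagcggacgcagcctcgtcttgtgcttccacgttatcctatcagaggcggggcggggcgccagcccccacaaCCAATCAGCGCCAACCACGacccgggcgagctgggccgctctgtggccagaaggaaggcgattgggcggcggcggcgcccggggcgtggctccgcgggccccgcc
Atf3 promoter (chr1:191183334-191183583, minus strand): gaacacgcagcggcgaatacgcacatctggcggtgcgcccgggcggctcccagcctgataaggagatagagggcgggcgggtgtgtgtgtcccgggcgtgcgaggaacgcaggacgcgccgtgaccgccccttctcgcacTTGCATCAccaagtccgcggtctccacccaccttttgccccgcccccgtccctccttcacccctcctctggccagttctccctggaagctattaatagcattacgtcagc
Vldlr promoter (chr19:27216770-27217019, plus strand): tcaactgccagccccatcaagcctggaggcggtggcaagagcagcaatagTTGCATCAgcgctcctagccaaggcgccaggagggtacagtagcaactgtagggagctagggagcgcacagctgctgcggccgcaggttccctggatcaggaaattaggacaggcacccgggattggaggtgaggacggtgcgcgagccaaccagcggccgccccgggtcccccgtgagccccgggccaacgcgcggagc

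Most of the stress genes read lower after the mimic, with 29 of 35 below 0 and a median log2 difference of -0.28, against 46.1% below 0 and a median of 0.02 over all genes tested. In limma with the group alone, 0 of the 35 passed an adjusted p under 0.05, where 3.57% of all genes did (1.89% higher, 1.68% lower), and adjusted p-values of the members ran from 0.0690 to 0.978. Before adjustment, 12 members were lower and 3 higher with p under 0.05, against 6.38% and 8.7% of all genes (15.1% in either direction). The groups did not overlap for 11 members, 7 of them lower and 4 higher, against 8.33% and 11.2% of all genes and 19.6% in either direction. Within all 3 replicate numbers 20 members were lower and 5 higher, against 18.5% and 24.1% of all genes. The replicate numbers were, however, taken to pair the arrays, since arrays of the same number deviated together across all genes. No label says what a replicate number marks. With the replicate number as a block in the same fit, 11 of the 35 fell and 1 rose, against 3.88% and 4.7% of all genes, and 8.58% in either direction. The 11 were Atf3, Dnajb9, Atf5, Sel1l, Dnajc3, Ero1l, Atf6, Trib3, Ddit3, Hspa5 and Ppp1r15a, and the 1 was Canx. In the authors' deposited table FDR p-values of the members ran from 0.132 to 0.987, where 0.0129% of all genes lay under 0.05. In the rest of the text "fell" and "rose" refer to the fit with the block unless a fit without it is named. For each called member the adjusted p without the block is given as well. SEs, intervals and folds are from the fit without the block throughout.

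**Figure D1:**
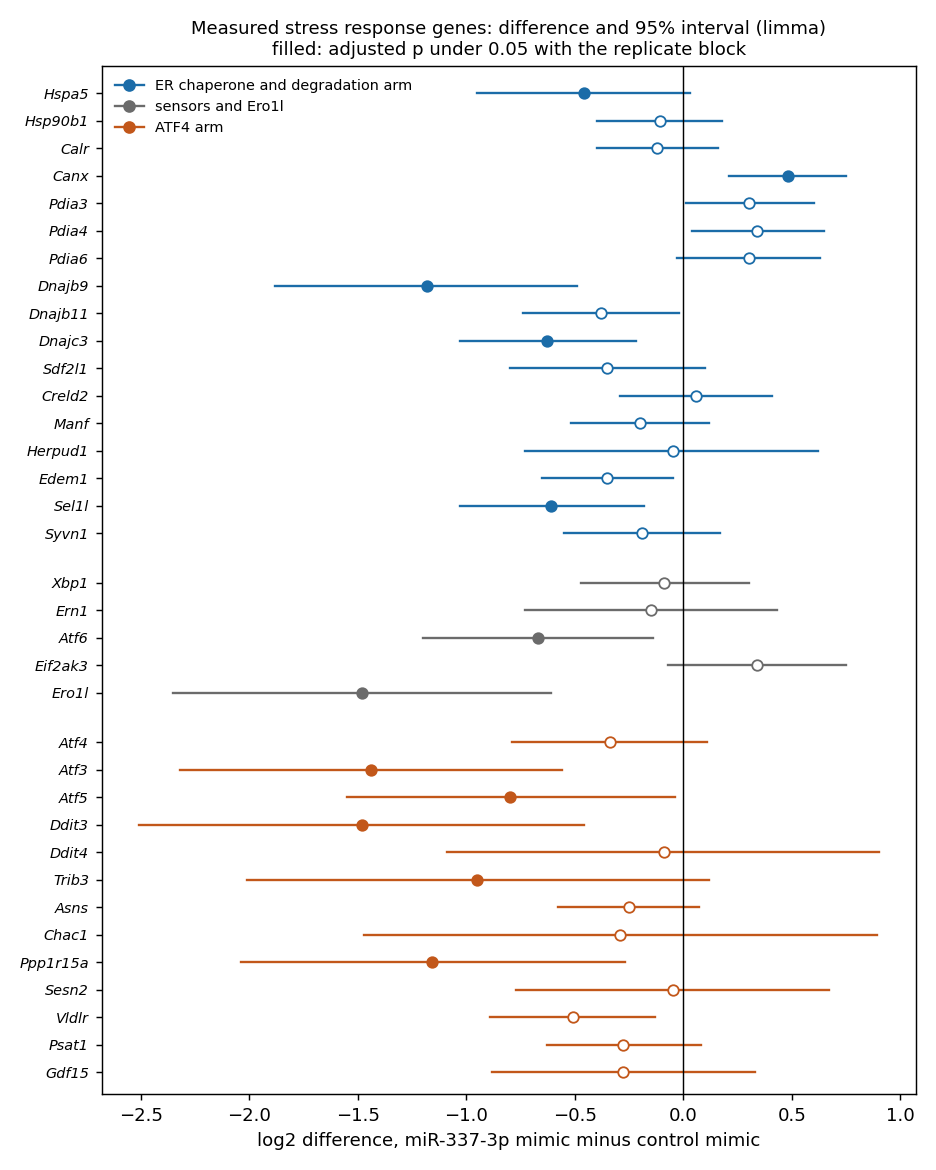
Log2 difference (x axis, miR-337-3p mimic minus control mimic) with limma's 95% interval without the block for the 35 measured genes (y axis), grouped as chaperone arm, sensors with Ero1l, and ATF4 arm. Filled points mark the 12 genes called with the replicate block, and all 13 ATF4 arm points lie below 0.

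The label of the cells was checked on markers, whose part in the results below was not tested. The keratins Krt8 and Krt18 and Hnf4a read at 9.60 or above on every array, while Dlk1, Afp and Alb read 7.39 or less, against medians over all genes of 4.83 to 5.01. Summed signals of 11 hepatoblast markers were 13.38 to 13.51 in control and 13.31 to 13.49 in mimic arrays on the log2 scale. Such sums add linear signals, so the brightest gene of a list weighs most. That gene was Krt8 (mean 12.02) for hepatoblasts and Cd68 (mean 7.53) for blood cells. In limma with the block 4 of the 11 hepatoblast markers fell and 1 rose, against 3.88% and 4.7% of all genes. Without the block 2 were called lower and 1 higher, against 1.68% and 1.89% of all genes. The 4 falls with the block were Epcam (adjusted p = 0.00682 without the block), Ttr (-1.22, 0.0259), Apoa1 (-1.34, 0.104) and Alb (-1.14, 0.127). For 8 mesenchymal markers the sums were 7.54 to 7.61 and 7.58 to 7.70, and for 6 endothelial markers 6.80 to 6.99 and 6.80 to 7.06, and of these Col1a1 rose (0.59, adjusted p = 0.0384 without the block). Of 7 blood cell markers 5 were measured, with sums of 7.33 to 7.79 in control and 8.23 to 8.82 in mimic arrays. Of the 5, Cd68 rose, a lysosomal protein gene, at a log2 difference of 1.18 (SE 0.23, adjusted p = 0.0320), while Ptprc, which defines leukocytes, read 3.02 to 3.69 on all arrays. The files hold no detection call, so low signals may be background. Fewer stressed cells and less RNA per cell cannot be told apart in bulk samples.

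Among the folding enzymes and chaperones of the chaperone arm, the lectin chaperone calnexin rose while the Hsp70 chaperone BiP fell. Canx (transcript cluster 17262336), which holds glycoproteins for folding, read 11.10, 10.94 and 11.07 in control replicates 1 to 3 and 11.57, 11.49 and 11.49 in mimic replicates 1 to 3. The mimic arrays all lay above the control arrays. Its log2 difference was 0.48 (SE 0.12), or 1.39-fold, with an adjusted p of 0.0362 with the block and 0.0690 without it. Hspa5 (17370103), which encodes BiP, the main ER chaperone and a repressor of the sensors, read 9.29, 9.04 and 9.76 in control and 8.80, 8.68 and 9.22 in mimic arrays. The groups overlap, but each mimic array was lower than the control array of its number. Hspa5 fell by 0.46 (SE 0.22), with an adjusted p of 0.0437 with the block and 0.372 without it. Both calls were close to the threshold, and neither held when the arrays of any 1 replicate number were left out of the blocked fit (adjusted p up to 0.148 for Canx and 0.164 for Hspa5).

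The 3 protein disulfide isomerases among the members had higher values after the mimic, as calnexin did, without passing. Pdia4 read 7.52, 7.84 and 7.57 in control and 7.93, 8.06 and 7.96 in mimic arrays, a log2 difference of 0.34 (SE 0.13, adjusted p = 0.260). Pdia3, the partner of calnexin and calreticulin, had a difference of 0.30 (95% interval 0.01 to 0.60), and Pdia6 one of 0.30 (-0.03 to 0.63). For these 3 genes and Canx all mimic arrays lay above all control arrays, as for 11.2% of all genes. The abundant chaperones Hsp90b1 (GRP94) and Calr (calreticulin) differed by -0.11 (-0.40 to 0.18) and -0.12 (-0.40 to 0.16). Adjusted p-values of these were 0.821 and 0.796. Relatives of the isomerases outside the members did not share 1 direction. Pdia5 rose and Txndc5 had a difference of 0.47 (adjusted p = 0.0527 with the block), while Erp44 fell, and P4hb and Erp29 had differences of -0.30 and -0.27 with all mimic arrays below all control arrays.

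The deepest falls of this arm were in Dnajb9 and Dnajc3, which encode J-domain partners of BiP, and in the degradation gene Sel1l. Dnajb9 (17280893), an ER J protein that BiP uses to hold IRE1 in check and an XBP1 target, read 9.46, 9.35 and 10.14 in control and 8.07, 8.21 and 9.12 in mimic arrays. Every mimic array lay below every control array. Dnajb9 fell by 1.18 (SE 0.30), or 2.27-fold, with an adjusted p of 0.00327 with the block and 0.0817 without it. It passed in all 3 blocked fits that left out 1 replicate number (up to 0.0171). Without replicate 1, 2 or 3 those fits called 847, 657 and 1049 of all 30927 genes lower. Dnajc3 (17302724), the J protein P58IPK, read 9.08, 8.76 and 9.36 in control and 8.48, 8.25 and 8.60 in mimic arrays. The groups did not overlap, and Dnajc3 fell by 0.63 (SE 0.18), at adjusted p-values of 0.0172 (block) and 0.111 (no block). Dnajb11, also a J protein gene, had a difference of -0.38 (SE 0.16), lower within all 3 replicate numbers, at an adjusted p of 0.0796 with the block and 0.298 without.

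Sel1l (17283056), the scaffold of the ubiquitin ligase that clears misfolded ER proteins, read 9.78, 9.48 and 10.03 in control and 9.08, 8.95 and 9.45 in mimic arrays. All mimic arrays lay below the controls. It fell by 0.61 (SE 0.19), at adjusted p-values of 0.0170 (block) and 0.141 (no block). Dnajc3 and Sel1l each passed in 1 of the 3 blocked fits with a replicate number left out (up to 0.0632 and 0.0639). Edem1, a lectin that hands glycoproteins to degradation, read 8.96, 8.79 and 9.02 in control and 8.44, 8.70 and 8.56 in mimic arrays. Its groups did not overlap either, and its log2 difference was -0.35 (SE 0.13), at adjusted p-values of 0.150 (block) and 0.234 (no block). Syvn1, the ligase that Sel1l supports, differed by -0.19 (-0.55 to 0.17), and Herpud1, a further component of that complex, by -0.05 (-0.73 to 0.62). The remaining chaperone arm genes, the co-chaperone Sdf2l1 and the secreted stress proteins Manf and Creld2, had differences of -0.35, -0.20 and 0.06, with adjusted p-values of 0.501 or above. In all, 4 of 17 chaperone arm genes fell and 1 rose with the block, against 3.88% and 4.7% of all genes. Without it 0 passed in either direction, against 3.57% of all genes, and the arm's median was -0.19.

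**Figure D2:**
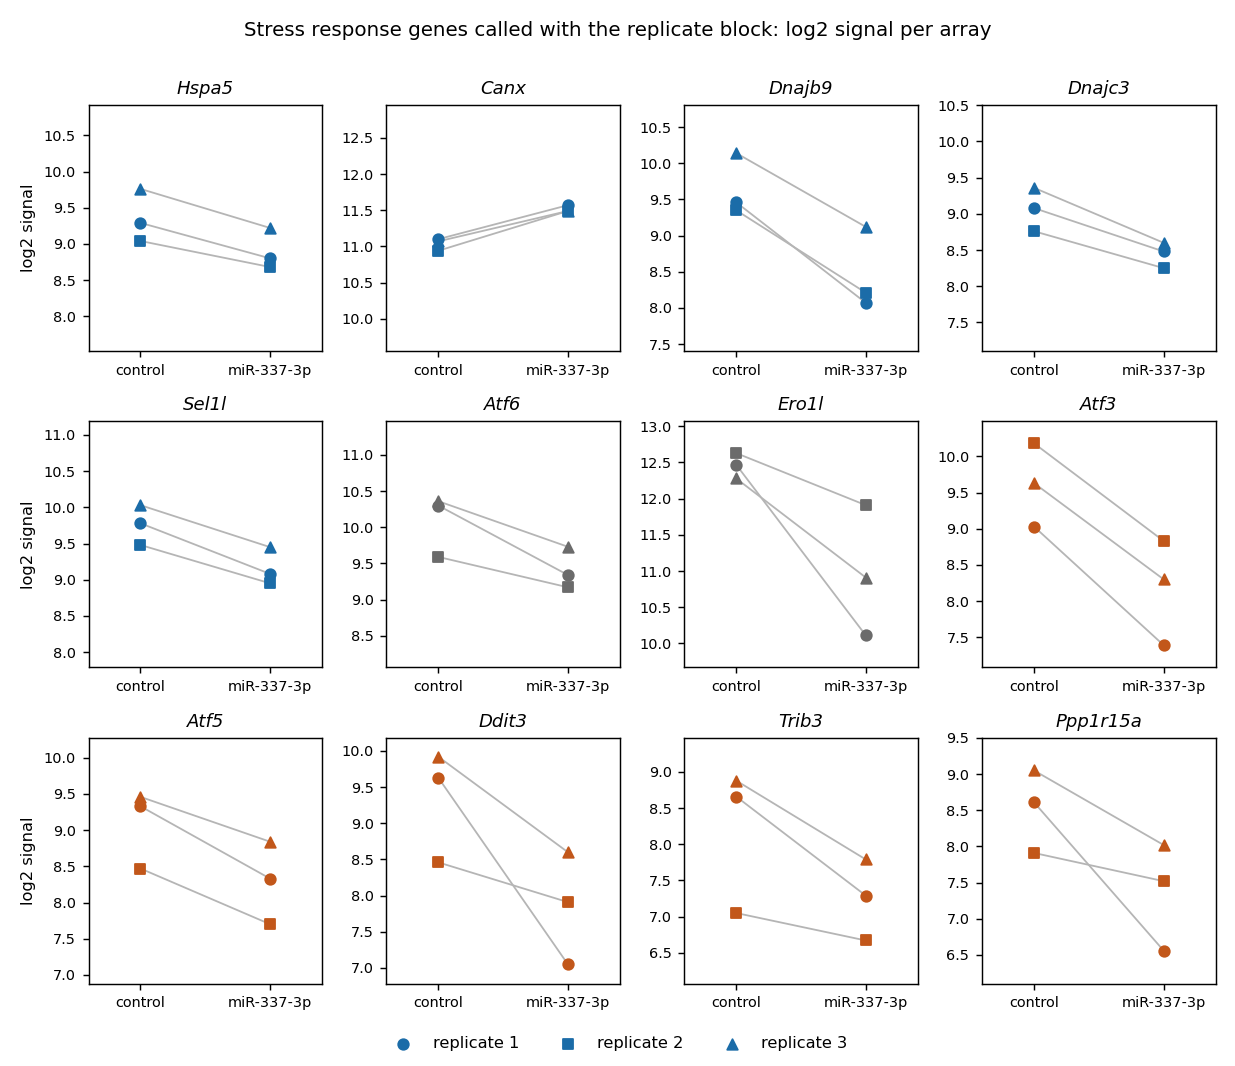
Log2 signal (y axis, each panel spanning the same log2 range) of the 12 genes called with the block, in the control mimic and miR-337-3p mimic arrays (x axis), with grey lines joining arrays of the same replicate number. The lines slope down in 11 panels and up in the Canx panel. Control replicate 2 is the lowest control array in every panel but those of Ero1l and Atf3, and for 33.0% of all genes.

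Of the sensors, the transcript of Atf6 fell and those of the other branches did not pass. Atf6 (17229556), the membrane-bound factor that is cut free under stress, read 10.30, 9.59 and 10.36 in control and 9.34, 9.17 and 9.73 in mimic arrays. The lowest control array lay below the highest mimic array, so the groups overlap, while all 3 replicate numbers went down. Atf6 fell by 0.67 (SE 0.23), with an adjusted p of 0.0236 with the block and 0.194 without it. It kept its call in 2 of 3 blocked fits that left out a replicate number (up to 0.0754).

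Xbp1, the factor whose messenger RNA IRE1 splices, read 9.40, 9.36 and 9.74 in control and 9.14, 9.49 and 9.60 in mimic arrays, a difference of -0.09 (-0.47 to 0.30). Ern1 read 8.33, 7.52 and 8.48 in control and 7.81, 7.81 and 8.26 in mimic arrays, a difference of -0.15 (-0.73 to 0.43). For both genes replicate 2 went up and replicates 1 and 3 went down. Eif2ak3 (PERK) read 6.98, 7.68 and 7.40 in control and 7.63, 7.74 and 7.70 in mimic arrays, higher within all 3 replicate numbers. Its difference was 0.34 (SE 0.18), with an adjusted p of 0.208 with the block and 0.458 without.

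Ero1l (17305636), the oxidase that recharges disulfide isomerases and a gene raised by CHOP and by low oxygen, read 12.47, 12.63 and 12.28 in control and 10.11, 11.91 and 10.91 in mimic arrays. The mimic arrays lay below the controls and were spread more widely, with an SD of 0.90 against 0.17. Ero1l fell by 1.48 (SE 0.38), or 2.79-fold, at an adjusted p of 0.0187 with the block and 0.0812 without it. It passed in all 3 blocked fits with a replicate number left out.

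All 13 measured genes of the ATF4 arm had a log2 difference below 0, from -1.48 to -0.05 with a median of -0.34. Within all 3 replicate numbers 9 of the 13 were lower, against 18.5% of all genes. With the block 5 fell, against 3.88% of all genes, and without it 0 did, against 1.68%. The 5 were transcription factors of the stress response and its feedback genes. Ddit3 (17237978), which encodes CHOP, a factor that promotes cell death in lasting stress, read 9.63, 8.46 and 9.92 in control and 7.05, 7.91 and 8.60 in mimic arrays. The groups overlap by 1 array on each side, and the difference within a replicate number ran from -0.55 in replicate 2 to -2.58 in replicate 1. Ddit3 fell by 1.48 (SE 0.45), or 2.79-fold, with an adjusted p of 0.0353 with the block and 0.135 without.

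Atf3 (17231033), a factor of the ATF family that ATF4 induces, read 9.03, 10.18 and 9.63 in control and 7.39, 8.83 and 8.30 in mimic arrays. No mimic array reached a control array, and the difference within replicate numbers 1 to 3 was -1.63, -1.35 and -1.33. Atf3 fell by 1.44 (SE 0.38), at adjusted p-values of 0.00215 (block) and 0.0913 (no block). Atf5 (17490391), a related factor under the same translational control as ATF4, read 9.33, 8.47 and 9.46 in control and 8.33, 7.70 and 8.84 in mimic arrays. Its groups overlap, and it fell by 0.80 (SE 0.33), at adjusted p-values of 0.00932 (block) and 0.296 (no block).

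The feedback genes fell as well. Trib3 (17392925), a pseudokinase that restrains ATF4 and CHOP, read 8.66, 7.05 and 8.88 in control and 7.29, 6.67 and 7.79 in mimic arrays. It fell by 0.95 (SE 0.47), at adjusted p-values of 0.0237 (block) and 0.411 (no block). Ppp1r15a (17490878), the GADD34 subunit that directs dephosphorylation of eIF2alpha, read 8.61, 7.91 and 9.05 in control and 6.56, 7.52 and 8.02 in mimic arrays. It fell by 1.16 (SE 0.39), at adjusted p-values of 0.0443 (block) and 0.178 (no block). In both genes control replicate 2 lay among the mimic arrays. All 5 genes also passed in each blocked fit that left out 1 replicate number, with adjusted p-values up to 0.0467. Without replicate 1, 2 or 3 these fits called 847, 657 and 1049 of all 30927 genes lower. They called 1013, 634 and 1081 genes higher. Fewer arrays leave fewer residual degrees of freedom, so passing again is a limited check.

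Atf4 itself (17313100) read 10.22, 9.79 and 10.42 in control and 9.88, 9.52 and 10.01 in mimic arrays. The differences within replicate numbers were -0.34, -0.27 and -0.42, and the groups overlap. The difference was -0.34 (95% interval -0.79 to 0.11), with an adjusted p of 0.106 with the block and 0.513 without. ATF4 is controlled at translation, so its transcript is no measure of the protein. Vldlr, a lipoprotein receptor gene induced through PERK and ATF4, read 10.08, 9.95 and 10.11 in control and 9.20, 9.65 and 9.77 in mimic arrays. Its groups did not overlap, at a difference of -0.51 (SE 0.16), at adjusted p-values of 0.0765 (block) and 0.162 (no block).

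Neither of the amino acid supply genes among the measured members passed. Asns (asparagine synthetase) and Psat1, an enzyme of serine synthesis, had differences of -0.25 (-0.58 to 0.07) and -0.28 (-0.63 to 0.08), each lower within all 3 replicate numbers. Outside the members, Cth, Psph and Aldh18a1 of amino acid synthesis fell and are described with the further genes. Sesn2, which restrains mTORC1, differed by -0.05 (-0.77 to 0.67), and Ddit4, a further mTORC1 inhibitor, by -0.09 (-1.09 to 0.90). Chac1, which degrades glutathione, and Gdf15, a secreted stress hormone, differed by -0.29 (-1.47 to 0.89) and -0.28 (-0.88 to 0.33). For Sesn2, Ddit4, Chac1 and Gdf15, and likewise for Herpud1, Creld2, Xbp1 and Ern1, leaving out 1 array could turn the sign.

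The arms were then set against each other within each replicate number. The mean log2 difference over the 17 chaperone arm genes was -0.13, -0.17 and -0.26 in replicates 1 to 3. Over the 13 ATF4 arm genes it was -0.87, -0.42 and -0.54, lower than that of the chaperone arm each time. The chaperone arm minus the ATF4 arm was thus 0.74, 0.25 and 0.28, a mean of 0.42 ± 0.27 (SD, n = 3 pairs). It was widest in replicate 1, where Ddit3, Ppp1r15a and Atf3 dropped furthest. Without the transcription factor genes Atf4, Atf3, Atf5 and Ddit3 in the ATF4 arm the mean was 0.24. No p is given, because the genes were chosen by name with results of these arrays known.

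**Figure D3:**
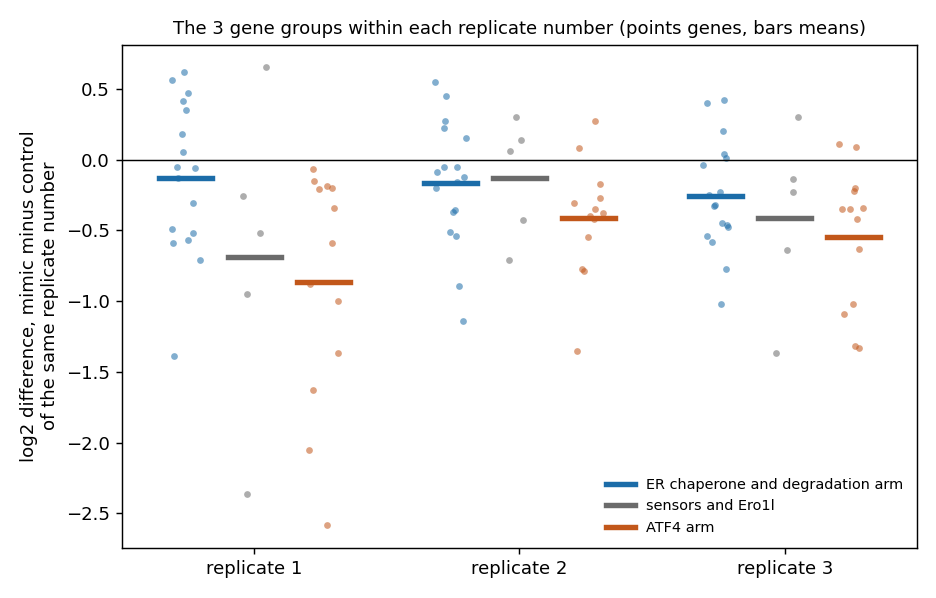
Log2 difference between the mimic and control array of the same replicate number (y axis) for replicates 1 to 3 (x axis), with 1 point per gene and bars at the mean of the chaperone arm, of the sensors with Ero1l, and of the ATF4 arm. The ATF4 arm means of -0.87, -0.42 and -0.54 lie below the chaperone arm means of -0.13, -0.17 and -0.26.

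Levels of the ATF4 arm also moved with the replicate number, for many of its genes in both groups. Chac1 read 8.35, 6.60 and 8.44 in control and 7.76, 6.68 and 8.09 in mimic arrays, so replicate 2 was lowest on both sides. Replicate 2 was the lowest control array for 10 of 13 ATF4 arm genes, against 33.0% of all genes. It was the lowest in both groups for 7 (Atf4, Atf5, Trib3, Asns, Chac1, Sesn2 and Psat1), where 14.3% of all genes had that pattern. Replicate 3 was the highest in both groups for 8 of the 13 (61.5%, against 18.5% of all genes). This was not particular to the arm, as it held for 3 of 5 sensor genes (60.0%) and 6 of 17 chaperone arm genes (35.3%). It also held for 12 of 39 further ER genes (30.8%). In the list of 39 further integrated stress response genes, replicate 2 was lowest in both groups for 16 and replicate 3 highest in both for 19. Atf3, Ddit4 and Gdf15 were instead highest in replicate 2 of both groups, against 12.6% of all genes. Ddit4 read 8.81, 10.06 and 8.59 in control and 8.62, 9.89 and 8.68 in mimic arrays. The groups did not share a pattern for Ddit3 and Ppp1r15a. The mean of replicates 1 and 3 minus replicate 2 was 1.31 and 0.92 in control and -0.08 and -0.22 in mimic arrays. Replicate 1 was the lowest mimic array for 6 of the 13 genes and the lowest control array for 1.

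The block takes out only the part of this pattern that both groups share. With it the SE of the log2 difference was a median of 0.54 of its unblocked size in the ATF4 arm, 0.86 in the chaperone arm and 0.83 over all genes. Control replicate 2 also stood apart for the inducible cytosolic heat shock genes, named after their values were seen. Hspa1a read 5.57, 9.78 and 5.69 in control and 5.76, 6.54 and 5.30 in mimic arrays, and its near-identical copy Hspa1b 6.61, 10.55 and 7.02 and 6.41, 7.61 and 6.69. Probes can read both copies, so these rows are not independent. The part of this array in the results was measured by leaving it out: 1 ATF4 arm gene, Trib3, then passed without the block, and 0 other members did. Of all 30927 genes that fit called 358 lower and 363 higher. In the blocked fit without replicate 2, the 5 ATF4 arm genes, Atf6, Ero1l and Dnajb9 passed, each lower, and Hspa5, Dnajc3, Sel1l and Canx did not. The blocked fit without replicate 2 called 657 of all genes lower and 634 higher.

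**Figure D4:**
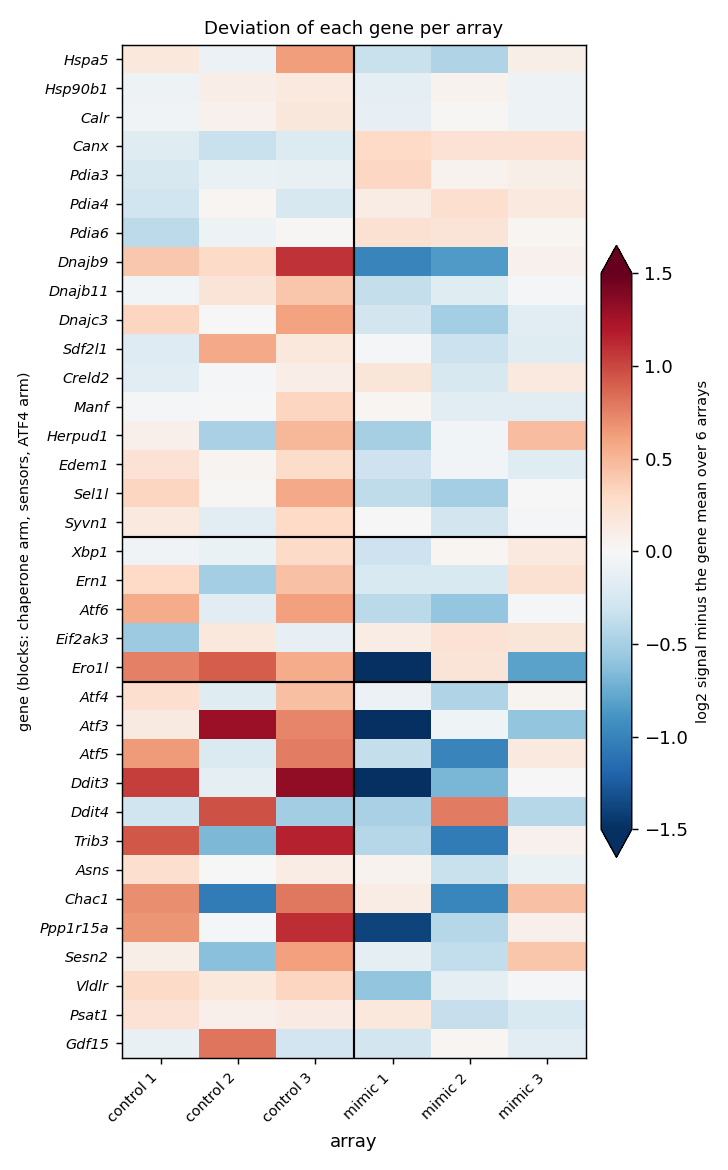
Log2 signal of each gene (y axis) minus its mean over the 6 arrays, shown as colour from -1.5 (blue) to 1.5 (red), for the 3 control and 3 mimic arrays (x axis). In the lower block the ATF4 arm genes are mostly red in controls 1 and 3 and paler or blue in control 2 and the mimic arrays, while Ddit4 is red in replicate 2 of both groups.

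Other genes of the same pathways were taken from pathway lists and are read against the same shares of all genes, 3.57% called without the block and 8.58% with it. Of 39 measured ER folding, translocation and degradation genes, 2 rose and 1 fell without the block and 3 rose and 6 fell with it, with a median of -0.02. Fkbp11, a peptidyl-prolyl isomerase of secretory cells, rose by 0.80 (SE 0.14, adjusted p = 0.0221 without the block), and the disulfide isomerase Pdia5 by 0.87 (SE 0.17, adjusted p = 0.0355). Edem3, an ER mannosidase of the Edem1 family, read 8.56, 8.49 and 8.86 in control and 7.60, 7.63 and 7.91 in mimic arrays and fell by 0.92 (SE 0.15, adjusted p = 0.0172). The groups did not overlap for these 3 genes, and with 1 array left out Edem3 and Fkbp11 passed in 2 of 6 fits and Pdia5 in none (up to 0.103). The other 6 calls of this list needed the block and are named after their values were seen. Sil1, a nucleotide exchange factor of BiP, fell by 0.57, Wfs1, an ER membrane protein, by 0.52, and Erlec1, an ER lectin of degradation, by 0.52. Derl1, a degradation channel component, fell by 0.51 and Erp44, a thioredoxin-like retention factor, by 0.49, while Mbtps1, the protease that cuts ATF6, rose by 0.50. Their adjusted p-values with the block were 0.0276 to 0.0480.

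Of 39 further integrated stress response genes, 1 rose and 0 fell without the block, and 2 rose and 10 fell with it, with a median of -0.16. Rnf122, a ubiquitin ligase gene listed as a stress target, read 6.38, 6.63 and 6.81 in control and 8.06, 7.88 and 8.43 in mimic arrays, opposite to the ATF4 arm. It rose by 1.52 (SE 0.18, adjusted p = 0.00574 without the block) and passed with any 1 array left out. Among the 10 falls, named after their values were seen, were Cth, which makes cysteine from cystathionine, and Aldh1l2, a mitochondrial folate enzyme. Cth had a difference of -1.22 (adjusted p = 0.0140 with the block, 0.156 without) and Aldh1l2 one of -1.17 (0.00589 and 0.197). The CHOP and ATF4 partner genes Cebpb and Cebpg, at -0.63 and -0.65, had adjusted p-values of 0.0270 and 0.0253 with the block, and 0.312 and 0.237 without it. The serine phosphatase gene Psph and the proline synthesis gene Aldh18a1 both had a difference of -0.51 (adjusted p = 0.0284 and 0.0381 with the block). Soat2, a cholesterol esterifying enzyme, fell by 1.02, the secreted glycoprotein gene Stc2 by 0.64, the stress-induced nuclear protein gene Nupr1 by 0.54 and the collagen receptor gene Ddr2 by 0.50. Ddr2 read 4.41 or less on every array, below the medians over all genes of 4.83 to 5.01, so its signal may be background. Sesn3, a relative of Sesn2, rose by 0.62. All of these are calls with the block that were not made without it.

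The other eIF2alpha kinases did not pass in either fit. Eif2ak2 (PKR), which double-stranded RNA activates, differed by 0.03 (-0.25 to 0.30), Eif2ak1 (HRI), the heme-regulated kinase, by -0.16 (-0.51 to 0.18), and Eif2ak4 (GCN2), the amino acid sensor, by 0.36 (0.02 to 0.70). Of 14 interferon-stimulated genes that duplex RNA can induce, Oasl2 rose (0.78, adjusted p = 0.0392 without the block) and 0 fell without the block. With the block Ifit2 fell as well, by 0.76, with an adjusted p of 0.0411 against 0.125 without. Their summed signal was 9.59 to 9.82 in control and 9.36 to 9.63 in mimic arrays on the log2 scale. Both groups received a duplex, so a response common to them cannot be seen in the difference.

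The remaining lists held few calls, while the tRNA synthetases were mostly on the lower side. Of 20 measured cytosolic tRNA synthetases, many of them ATF4 targets, 0 passed without the block, while Vars rose and Wars fell with it, and the median was -0.28 with 15 of 20 below 0. Within all 3 replicate numbers 12 of the 20 were lower, against 18.5% of all genes. Of 19 cytosolic heat shock genes 0 passed in either fit, at a median of 0.09, with 1 lower and 1 higher at an unadjusted p under 0.05 in limma without the block. Of 11 mitochondrial chaperones and proteases, Dnaja3, a mitochondrial J protein, fell by 0.66 (SE 0.14, adjusted p = 0.0468 without the block) and 0 rose.

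**Figure D5:**
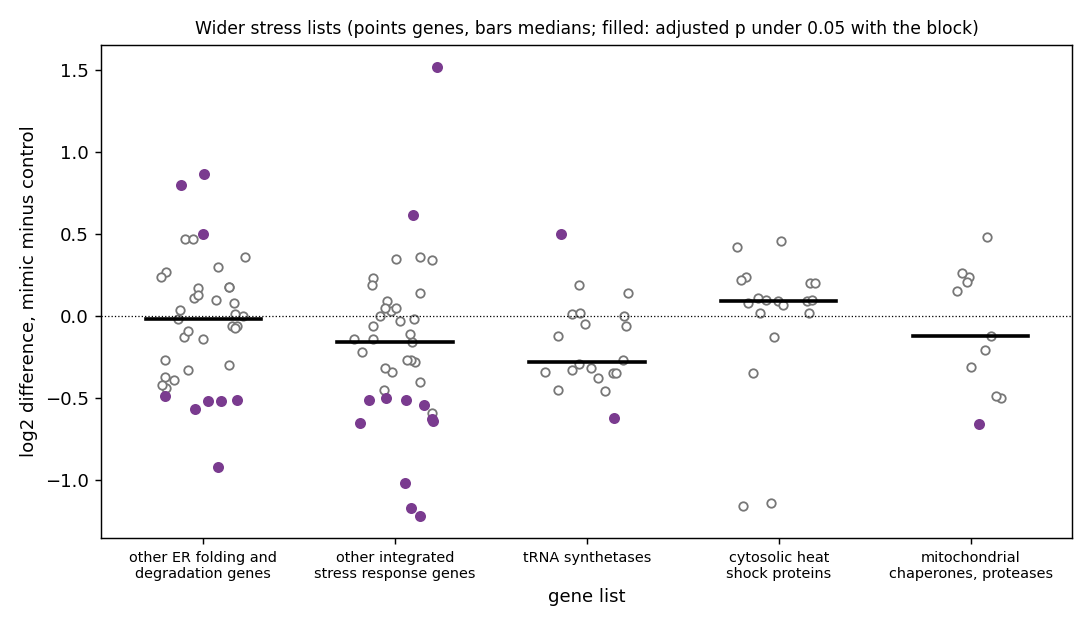
Log2 difference, mimic minus control (y axis), of each gene in 5 further lists (x axis), with bars at the list medians of -0.02, -0.16, -0.28, 0.09 and -0.12 and filled points for genes called with the block. Rnf122 is the highest point at 1.52, and the lowest points of the heat shock list are Hspa1a and Hspa1b.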

How the data were processed

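The authors deposited log2 signals of 41345 transcript clusters on each array. These were used as normalized values. For the software, the background correction and the array design, the sources used here name none. Biotinylated cRNA was made from 6 ug of total RNA, per the labels' protocols. The authors' deposited table adds group averages of the log2 signal, a signed fold change kept as a score, a linear ratio, and an ANOVA p-value with its FDR, per the file headers. Symbols came from that table, 34471 rows joined, 2003 had no symbol and 15 read as dates or numbers. The brightest row per symbol was used where a gene had several, and all members had 1 row.

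Differences were fitted over all 30927 genes with limma 3.58.1 in R 4.3.3 (lmFit, eBayes, Benjamini-Hochberg over all genes, two-sided, call under 0.05, no filter), which was tested on simulated data. The main fit has the group alone. Deviations from the group means correlated at 0.431, 0.370 and 0.442 between arrays of the same replicate number, so the numbers were taken to pair the arrays and the blocked fit is given beside it. No label says what a number marks, so only the signals speak for the pairing. Intervals are limma's 95% intervals without the block, and the number of arrays limits the precision. SEs and folds are also from the fit without the block. The members, lists and tests were chosen with earlier results of these data known. Named are all members, array values for those called, for the main sensors and factors and for the 6 per arm with the smallest p, genes of the wider lists called without the block, and 3 kinases; wider genes called with the block alone are named beyond this rule. The groupings of chaperone arm genes by function and the fits that leave out a replicate number in both groups were chosen after seeing the data. Promoters and the microRNA came from RefSeq tables (GRCm38.p6), read with pandas 2.3.3. Target sites of miR-337-3p in transcripts were not analysed here, and a called marker gene is not reported here.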

Additional observations from a re-analysis of the deposited data

How the results depend on the processing

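Of the genes called with the replicate block, Hspa5 lost its call under quantile normalization (adjusted p = 0.0538 in limma) and the other 11 kept theirs under both scalings. In the ATF4 arm 5 fell with the block alone, with median centring, with quantile normalization and without the dimmest 40% of genes, and in each blocked fit without a replicate number. In the chaperone arm 4, 4, 3 and 5 fell and 1 rose in each, and of the sensors with Ero1l 2 fell in each. In the 5 wider lists together 3 rose and 2 fell without the block. In these 4 blocked fits 6, 6, 6 and 10 rose and 18, 20, 19 and 24 fell. Over all genes 584 rose and 519 fell without the block, against 1454 and 1200 with it. The blocked fits gave 1378 and 1241 with centring, 1265 and 1275 with quantile normalization and 1786 and 1408 without dim genes. Without the block, centring gave 351 rises and 389 falls over all genes and 1 fall in the wider lists, quantile normalization 4 falls and averaging the rows of a symbol 1 fall there, and eBayes with trend and robust options 1 rise (Canx) in the chaperone arm. The authors' deposited FDR p-values gave 2 rises and 2 falls over all genes and 0 of either in the wider lists. With 1 array left out and no block, 150 to 363 genes rose and 172 to 358 fell over all genes. In the same fits 1 to 2 rose and 0 to 4 fell in the wider lists. In each of the ATF4 arm, the chaperone arm and the sensors 0 to 1 fell. Without both arrays of replicate 1, 2 or 3 the unblocked fits gave 26, 138 and 18 rises and 51, 211 and 31 falls over all genes, and the blocked fits 1013, 634 and 1081 rises and 847, 657 and 1049 falls. In the blocked ones 5 fell each time in the ATF4 arm, 2, 1 and 2 in the chaperone arm, 1, 2 and 2 in the sensors, and 3 rose each time and 6, 4 and 12 fell in the wider lists. Single arrays changed 3 member calls without the block: Trib3 passed without control replicate 2, Ero1l without mimic replicate 2 and Dnajb9 without mimic replicate 3. No sign turned for a called member. With 1 array left out, differences ran from -0.01 to 0.19 for Creld2, -0.32 to 0.18 for Herpud1, -0.18 to 0.05 for Xbp1, -0.45 to 0.04 for Ern1, -0.50 to 0.36 for Ddit4, -0.89 to 0.13 for Chac1, -0.38 to 0.25 for Sesn2, -0.48 to 0.06 for Gdf15 and -0.03 to 0.07 for Eif2ak2. Without both arrays of replicate 1 they were -0.08 for Creld2, 0.20 for Herpud1, 0.03 for Ern1, 0.03 for Sesn2 (also without replicate 3) and -0.06 for Eif2ak2, and the authors' deposited ratios gave 0.11 for Xbp1 and 0.04 for Gdf15 on the log2 scale. The mean of the chaperone arm minus the ATF4 arm ran from 0.24 to 0.52 over the 12 alternatives tried for it. Few arrays limit all of these fits, since fewer arrays leave fewer residual degrees of freedom.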
